A study of Mus musculus with 15 samples.

Results

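Mouse dental mesenchymal cells (mDMCs) cultured for 24 h were compared with mDMCs cultured for 12 h. The comparison used every library that the labels give those time points, 3 libraries at 24 h and 2 libraries at 12 h, which are 5 of the 15 libraries of the series. mDMCs are single cells that were released with trypsin from the dental mesenchyme of mandibular first molars of ICR mouse embryos at embryonic day 14.5. Both groups came from the same strain and stage and grew in medium with fetal bovine serum (FBS), and they differ in the labels only by the time in culture. The other libraries are 3 each of freshly isolated mDMCs (0 h) and of mDMCs at 36 and 48 h, and 1 of dental mesenchymal tissue. Each library holds the RNA of a cell population, and the sources do not say whether replicates came from separate cultures or litters, so p-values measure the spread between these libraries, which may be technical.

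Dental mesenchyme is the neural crest-derived tissue under the dental epithelium that forms the pulp and the odontoblasts of the tooth. In the embryo it exchanges Wnt, BMP, Hedgehog and FGF signals with the epithelium, and homeobox factors of the Msx, Dlx, Pax and Lhx families mark it. In culture the cells lose the epithelium and the vessels of the tooth germ and are exposed to serum and plastic. Cells in such conditions are known to pass through the cell cycle and to show stress responses, among them that of p53, a transcription factor that raises genes for cell cycle arrest, DNA repair and death when DNA or ribosomes are damaged.

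The values were whole-number expression scores for 12089 transcripts, and every library had been brought to a common distribution, whose median score is 721 and whose ceiling is 127101. Scores are therefore closer to ranks than to counts, the depth of the libraries is unknown, and a change in the total RNA of the cells cannot be seen. Of these transcripts 12079 were tested with limma on log2(score + 1), and all changes are differences of that quantity, 24 h minus 12 h, which understates the change of low transcripts. A transcript is called higher or lower where its Benjamini-Hochberg adjusted p-value over all 12079 was below 0.05. The 4 pairs of libraries of the same time correlated at r = 0.971 to 0.984 and the 6 pairs across the times at 0.953 to 0.972, over transcripts, which are not independent replicates.

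Between 12 h and 24 h, 997 transcripts (8.25%) were called, 554 (4.59%) higher and 443 (3.67%) lower. By the threshold of the study, an unadjusted p-value below 0.05 and a change of over 2-fold, 445 (3.68%) passed, 217 (1.8%) higher and 228 (1.89%) lower. The median change of all transcripts was 0.008, and the median change of those called was 0.733 upward and -0.704 downward, so most called changes were below 2-fold. The count depends on the libraries at 12 h, since without 12 h replicate 1 the calls fell to 135 higher and 49 lower, and without 24 h replicate 2 to 226 and 131. A fit without a 12 h library leaves 1 library at that time, which is then assumed to vary like the libraries of the other times. The libraries also differed from each other within a time, with 355 transcripts over 2-fold apart between both libraries at 12 h and 283 to 593 between the libraries at 24 h.

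**Figure D1:**
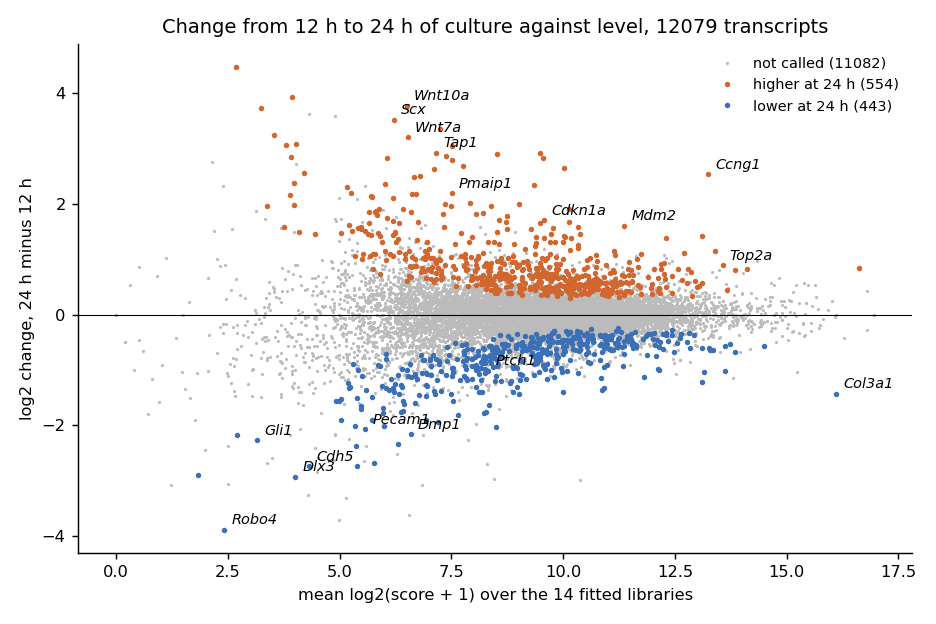
Log2 change from 12 h to 24 h (vertical axis) against the mean log2(score + 1) (horizontal axis), 1 point per transcript. The mean is over the 5 libraries at 12 h and 24 h, although the axis label names the 14 fitted libraries. The 554 transcripts called higher and 443 called lower are coloured, and Ccng1 stands out at a high level with a change of 2.53.

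A first group among the rises was that of p53 target genes, a list that was chosen with earlier results of these data known and whose count is therefore not independent evidence. Of the 27 targets tested, 13 were called higher (4.59% of all transcripts were) and none lower, with a median change of 0.90 beside 0.008 for all transcripts, and 10 were called without 12 h replicate 1. The arrest genes come first. Ccng1, cyclin G1, a target that recruits a phosphatase to Mdm2, had scores of 3459 and 3290 at 12 h and of 18558, 19258 and 20919 at 24 h. All 3 later libraries stood far above both earlier ones, a change of 2.53 ± 0.12 (SE, 95% interval 2.28 to 2.79, adjusted p = 3.69e-07), or 5.79-fold, and the call held in each of the fits that left out a library. The transcript lies on chr11:40748552-40755311 (mm10, minus strand, 6 exons). Cdkn1a, the p21 inhibitor of cyclin-dependent kinases, scored 484 and 289 at 12 h and 1231, 1284 and 1158 at 24 h. Its groups did not overlap, and it rose by 1.71 ± 0.31 (adjusted p = 0.00616). Gtse1, which is made in the G2 phase and moves p53 out of the nucleus, went from 691 and 645 to 1958, 2160 and 1884, a rise of 1.58.

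The Cdkn1a transcript listed in the table (chr17:29090979-29099701, plus strand, 3 exons) starts at the more upstream of the start sites that RefSeq gives the gene. Its promoter is shown because it holds a p53 response element, which consists of 2 copies of a 10-base motif with up to 13 bases between them. Capitals mark the pair of copies with the fewest mismatches. These 2 copies had 0 mismatches to the motif, stood 12 bases apart and began 73 and 51 bases before the start. A further stretch, tgacatgttc, directly follows the second copy and departs from the motif only at its first base. It was left in small letters, because the search kept a single pair. Which of these copies p53 binds was not tested. The window runs from 250 bases before to 50 bases after the start (RefSeq, GRCm38.p6, chr17:29090729-29091028, plus strand).
Cdkn1a: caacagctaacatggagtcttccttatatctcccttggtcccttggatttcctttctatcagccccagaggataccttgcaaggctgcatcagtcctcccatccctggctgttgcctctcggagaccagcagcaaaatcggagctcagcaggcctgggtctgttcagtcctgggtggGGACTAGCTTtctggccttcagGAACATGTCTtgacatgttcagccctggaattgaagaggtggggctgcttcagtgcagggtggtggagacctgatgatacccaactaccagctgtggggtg
Of the 9271 genes of the table with a promoter in the RefSeq set, 0.0431% (4 genes) held such an element without mismatch, and 1.65% held it with up to 2 mismatches. Of the 20 p53 targets with a promoter, 1 and 2 did so. The search covered only this window, and Mdm2, whose element is known to lie inside the gene, is an example of a target that it does not reach.

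Among the genes that feed back on p53, Mdm2, its ubiquitin ligase, scored 1306 and 1403 at 12 h and 4240, 4209 and 3947 at 24 h. The libraries of each time lay close together and the change was 1.61 ± 0.17 (adjusted p = 0.000137), or 3.05-fold. Of the genes for cell death, Pmaip1 (Noxa, a BH3-only inhibitor of Bcl2 proteins) rose by 2.19 from 64 and 81 to 293, 314 and 397, Bax (a pore-forming Bcl2 relative) by 0.80 and Eda2r (a death receptor of the TNF family) by 1.40. Trp53inp1, Aen (a nuclease), Ei24 and Phlda3 (an inhibitor of Akt) rose by 1.45, 0.94, 0.90 and 1.01. Polk, a DNA polymerase that copies past lesions, rose by 1.45 and Sesn2, a stress sensor that restrains mTORC1, by 1.30. Without 12 h replicate 1 the adjusted p of Bax, Sesn2 and Trp53inp1 was 0.0783, 0.067 and 0.0669.

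Not every target passed the test. Bbc3 (Puma, a death gene), Btg2, Fas and Perp had positive changes of 1.14, 0.82, 0.74 and 1.48 without a call, and in each of these genes all 24 h libraries lay above both 12 h libraries, as in 20.6% of all transcripts. Zmat3 scored 1349 and 623 at 12 h, so that 1 earlier library lay almost at the 24 h values of 1537, 1459 and 1608. Sesn1 went the other way, from 297 and 363 to 254, 218 and 238, a change of -0.47 (adjusted p = 0.0756). The members of the list called higher were not concentrated in a single late library, since each of the 3 libraries at 24 h held the top score for 3 to 5 of the 13. In the freshly isolated cells Ccng1 scored 1135, 1085 and 902, and at 36 h it scored 36423 in every library.

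**Figure D2:**
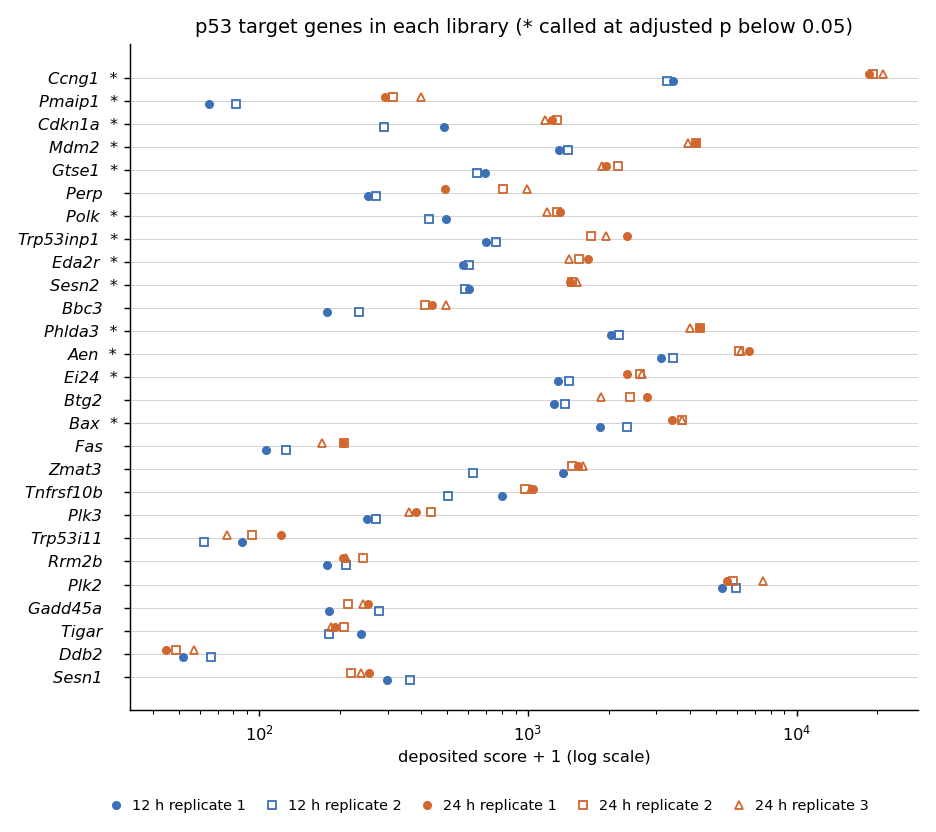
Deposited score + 1 on a log axis for the 27 p53 target genes in each library at 12 h (blue) and 24 h (orange), sorted by change, with asterisks for the 13 called genes. For 20 of the 27 genes all 24 h libraries lie to the right of both 12 h libraries, against 20.6% of all transcripts.

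A part of the mitosis genes rose as well. Of 44 tested, 22 were called higher, beside 4.59% of all transcripts, and none lower. The median change was 0.58, and 42 had a positive sign. Relative to the 12 h libraries, the median of the list lay at 0.69, 0.67 and 0.41 in the 0 h libraries. It lay at 0.37, 0.85 and 0.51 at 24 h, so the list was lower at 12 h than at 0 h or 24 h. The rise was carried unevenly by the libraries: 24 h replicate 2 had the highest of the 3 late scores in 42 of the 44 genes, compared with 23.6% of all transcripts. Without that library 9 were called, and without 12 h replicate 1 only 2. Hmmr, a receptor for hyaluronan that organises the spindle, scored 1010 and 1170 at 12 h and 1818, 3290 and 2014 at 24 h. The later libraries were all higher, but the spread among them was wide, and the change was 1.08 ± 0.23 (adjusted p = 0.0151). Top2a, the topoisomerase that untangles sister chromatids, scored 7414 and 9415 and then 15615, 16524 and 14391, a change of 0.89 ± 0.15 (adjusted p = 0.00396). The motor and cytokinesis genes Kif23, Kif4, Anln, Ect2, Kif11 and Prc1 rose by 0.98, 0.97, 0.83, 0.77, 0.71 and 0.69. The checkpoint and kinase genes Ttk, Bub1, Aurkb and Mad2l1 rose by 0.69, 0.58, 0.50 and 0.46, and Ccnb1, the cyclin of mitotic entry, by 0.71.

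Mki67, a common marker of dividing cells, was not among the calls. It scored 3819 and 2023 at 12 h and 2555, 3159 and 3229 at 24 h, so the earlier libraries enclosed the later ones, and its change of 0.09 turned to -0.37 without 12 h replicate 2.

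The promoters of Top2a, Hmmr and Kif23 are shown because mitosis genes are known to share a pair of motifs near their start, the cell cycle homology region (TTTGAA) and the CCAAT box. Capitals mark every match of either motif on either strand, and no matches overlapped. The windows are those of RefSeq (GRCm38.p6) at chr11:99024140-99024439, chr11:40733388-40733687 and chr9:61946750-61947049, all on the minus strand and written 5′ to 3′.
Top2a: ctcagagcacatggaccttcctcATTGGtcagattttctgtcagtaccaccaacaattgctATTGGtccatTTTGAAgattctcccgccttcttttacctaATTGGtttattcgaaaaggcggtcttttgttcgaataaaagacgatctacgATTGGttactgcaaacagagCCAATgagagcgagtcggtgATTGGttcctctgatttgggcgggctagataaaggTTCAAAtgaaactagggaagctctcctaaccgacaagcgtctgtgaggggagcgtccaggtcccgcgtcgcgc
Hmmr: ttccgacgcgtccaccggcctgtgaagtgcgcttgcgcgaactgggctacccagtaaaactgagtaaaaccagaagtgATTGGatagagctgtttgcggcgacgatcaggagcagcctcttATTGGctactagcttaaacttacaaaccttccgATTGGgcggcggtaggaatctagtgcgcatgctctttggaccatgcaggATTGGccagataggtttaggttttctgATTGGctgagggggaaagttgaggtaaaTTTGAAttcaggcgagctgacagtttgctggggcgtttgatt
Kif23: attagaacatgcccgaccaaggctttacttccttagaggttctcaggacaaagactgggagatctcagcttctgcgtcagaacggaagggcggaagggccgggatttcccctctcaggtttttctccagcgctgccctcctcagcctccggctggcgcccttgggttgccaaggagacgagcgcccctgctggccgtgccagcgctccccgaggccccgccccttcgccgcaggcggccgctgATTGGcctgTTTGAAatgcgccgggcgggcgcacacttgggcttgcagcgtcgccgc
The Top2a window holds 8 matches, that of Hmmr 6 and that of Kif23 2. Both motifs occurred in 24 of the 37 mitosis genes with a promoter (64.9%), in 3 of 36 DNA replication genes (8.33%) and in 4.93% of all 9271 promoters. Of the 18 mitosis genes called higher that had a promoter, 10 held both, a share of 55.6%, below that of the whole list. TTTGAA, with or without CCAAT, was in 73% of the mitosis promoters and 11.6% of all. CCAAT, with or without TTTGAA, was in 78.4% and 39.2%.

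DNA replication genes showed no common direction. Of 45 tested, 2 were called higher and 3 lower, shares near the 4.59% and 3.67% of all transcripts, and the median change was -0.06. Rrm1, the large subunit of ribonucleotide reductase, rose by 0.77 and Tk1, thymidine kinase, by 0.47. E2f1, the factor that drives S phase genes, fell from 761 in both libraries to 534, 520 and 524, a change of -0.53 ± 0.11 (adjusted p = 0.0123). Cdc6, which loads the replicative helicase, went from 1355 and 1365 to 963, 987 and 993, a change of -0.47, and Uhrf1, which maintains DNA methylation, fell by 0.36. For E2f1 and Cdc6 the replicates of each time lay close together and the groups were apart. Without 12 h replicate 1 a single gene of this list was called, Cdc6. The difference in change between the mitosis and replication lists was not tested.

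Regulators of the step from G1 into S phase moved in both directions. Besides Cdkn1a, Ccnd1 (cyclin D1) rose from 4858 and 5154 to 7714, 9591 and 9403, a change of 0.82, and Rb1, the retinoblastoma protein, rose by 0.53. Ccnd2 (cyclin D2) fell from 23247 and 16542 to 12983, 12096 and 11655, a change of -0.68. The other 11 of the 15 genes tested were not called. Of the list 20% were called higher and 6.67% lower, beside 4.59% and 3.67% of all transcripts. Only Cdkn1a was called without 12 h replicate 1.

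**Figure D3:**
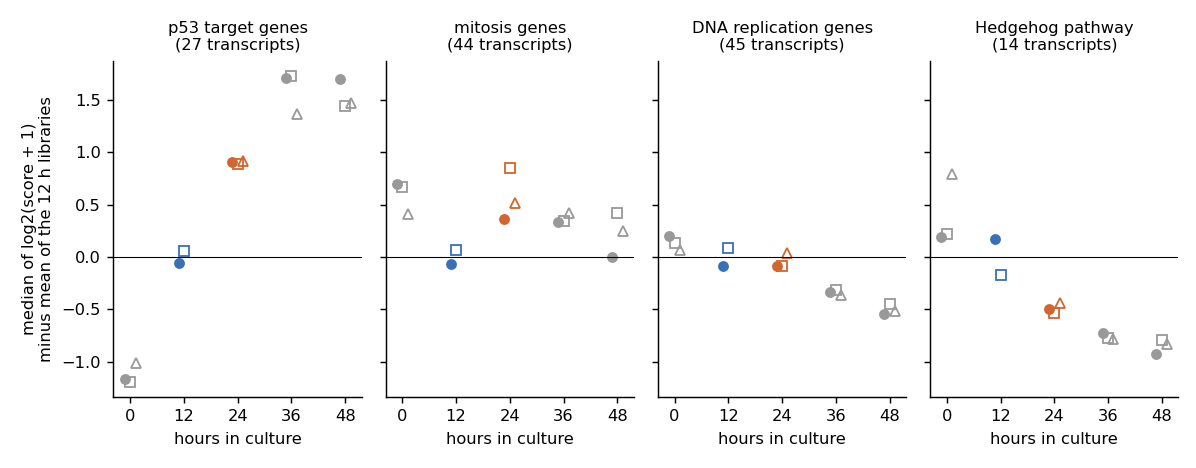
Median of log2(score + 1) over each list minus the mean of both 12 h libraries (vertical axis) against hours in culture, 1 point per library, 12 h in blue and 24 h in orange. The 24 h libraries lie at 0.91, 0.89 and 0.91 for p53 targets and at 0.37, 0.85 and 0.51 for mitosis genes. They lie at -0.09, -0.09 and 0.04 for DNA replication genes and at -0.49, -0.53 and -0.44 for the Hedgehog pathway. The 0 h libraries lie at -1.16, -1.19 and -1.01 for p53 targets and at 0.69, 0.67 and 0.41 for mitosis genes. They lie at 0.20, 0.14 and 0.07 for DNA replication genes and at 0.20, 0.22 and 0.80 for the Hedgehog pathway.

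Some of the markers of endothelial cells, which line blood vessels, fell from low scores at 12 h. Of 13 markers tested, 5 were called lower, beside 3.67% of all transcripts, and none higher, and the median change was -1.0. None was called without 12 h replicate 1, and 2 were called with a pseudocount of 0.1. In bulk samples fewer cells of a type and less RNA per cell cannot be told apart. Robo4, a guidance receptor of vessels (chr9:37401897-37414019, plus strand, 17 exons), scored 35 and 19 at 12 h and 1, 0 and 2 at 24 h, a change of -3.88 ± 0.66 (adjusted p = 0.0049, and 0.0898 without 12 h replicate 1). Cdh5 (VE-cadherin), the adhesion protein of endothelial junctions, scored 81 and 46 and then 8, 9 and 8, a change of -2.74. Pecam1 (CD31) fell from 129 and 97 to 25, 19 and 36, a change of -2.07 ± 0.35 (adjusted p = 0.00457), and no late library came near an early one. Tie1 and Emcn fell by 2.17 and 1.38. Freshly isolated mDMCs had held Pecam1 scores of 1984, 2544 and 1953.

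The VEGF receptors were not among the calls. Flt1 had a change of 0.35 and Kdr of 0.23, neither called, and Tek and Esam changes of -0.72 and -1.07 without a call. Of the 13 markers, 4 were under 30 in all 5 libraries. Sox7, a transcription factor of endothelium that was not in the list, was among the largest falls, from 13 and 9 to 0, 1 and 1, and was called in 6 of 11 alternative settings (adjusted p up to 0.198). The summed score of the 13 markers was 3093 to 3933 at 12 h and 2793 to 4451 at 24 h, mostly from Flt1 and Eng, and these ranges overlapped.

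Markers of other cells that the culture could hold gave few calls, from short lists. Called lower were 25% of the macrophage and blood cell genes and 12.5% of the cartilage genes, beside 3.67% of all transcripts. Called higher were 14.3% of the nerve, 10% of the muscle and 14.3% of the pericyte genes, beside 4.59%. Of 8 macrophage and blood cell genes, Csf1r, the receptor that macrophages need to survive, fell from 273 and 291 to 124, 181 and 115 (change -1.03), and Coro1a fell by 1.26. Neither was called without 12 h replicate 2, and Csf1r was not called without 12 h replicate 1 or 24 h replicate 3 either. None of 11 dental epithelium genes was called, although their median change was -0.93. Krt15, a basal keratin, went from 124 and 176 to 3, 10 and 32 (change -3.72, adjusted p = 0.0568) and Epcam from 104 and 161 to 30, 47 and 38 (change -1.75, adjusted p = 0.156). None of 9 red cell genes was called. Single genes were called for nerve (Mbp, 1.41), muscle (Tnnt2, 1.86), pericytes (Cspg4, 0.81) and cartilage (Col9a2, -2.00), of 7, 10, 7 and 8 tested. None of these 4 was called without 12 h replicate 1, and Tnnt2 lost its call without any one of the 5 libraries (adjusted p up to 0.257). The muscle genes differed widely among the late libraries, with summed scores between 853 and 3912 at 24 h beside 1707 to 1758 at 12 h, and their part in any result above was not tested.

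All 18 markers of dental mesenchyme fixed for the identity of the cells had values, and 17 of them exceeded 30 in at least 1 of the 5 libraries. Msx1, the homeobox factor needed for tooth buds to develop, fell from 4338 and 4373 to 3355, 3165 and 3545, a change of -0.38 ± 0.09 (adjusted p = 0.0239). Pdgfra, a receptor of mesenchymal cells, fell from 5100 and 4885 to 3367, 3595 and 4048, a change of -0.45. In both genes all late libraries lay below both early ones. They were the only 2 of the 18 markers called, the median change of the 18 was -0.24, and neither was called without 12 h replicate 1. Pax9 went from 2177 and 1525 to 903, 1130 and 1301 (change -0.73, adjusted p = 0.0946) and Runx2, the factor of bone and odontoblast precursors, from 1420 and 730 to 474, 517 and 725 (change -0.86, adjusted p = 0.164). In both of them 12 h replicate 1 lay well above replicate 2. The signals Bmp4 and Fgf10 had changes of 0.18 and 0.20 without a call. Of the 18 markers 11.1% were called lower, beside 3.67% of all transcripts. In a wider list of transcription factors the share was 10.3%. Its called members were Msx1, Dlx3 and Gli1, of which Dlx3 and Gli1 are also described under other lists below. Over 29 transcription factors of dental mesenchyme 3 were called lower, none higher and none without 12 h replicate 1, with a median change of -0.40.

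The Hedgehog pathway, by which Shh from the dental epithelium reaches the mesenchyme, held several genes that fell. Of 14 genes tested, 5 were called lower, beside 3.67% of all transcripts, and none higher, with a median change of -0.53. Among receptors and co-receptors, Ptch1, which binds Shh and is itself a target, scored 536 and 440 at 12 h and 245, 235 and 239 at 24 h. The late libraries were nearly equal and lay below both early ones, a change of -1.02 ± 0.20 (adjusted p = 0.00924) or 2.02-fold lower. Cdon and Gas1, co-receptors, fell by 0.71 and 0.70, and Smo, the signal transducer that Ptch1 restrains, by 0.46. Of the transcription factors, Gli1, the most direct target of the pathway, scored 30 and 16 and then 1, 5 and 8, a change of -2.27 ± 0.59 (adjusted p = 0.0324). Its scores in freshly isolated cells had been 1608, 1888 and 1650, so the fall after 12 h followed a far larger difference between 0 h and 12 h. Gli2 scored 918 and 325 and then 229, 251 and 184 (change -1.31, adjusted p = 0.0662), and Gli3 had a change of -0.60 without a call. Replicate 1 was the higher of the 12 h libraries in 12 of the 14 genes, and without it none of the 14 was called.

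**Figure D4:**
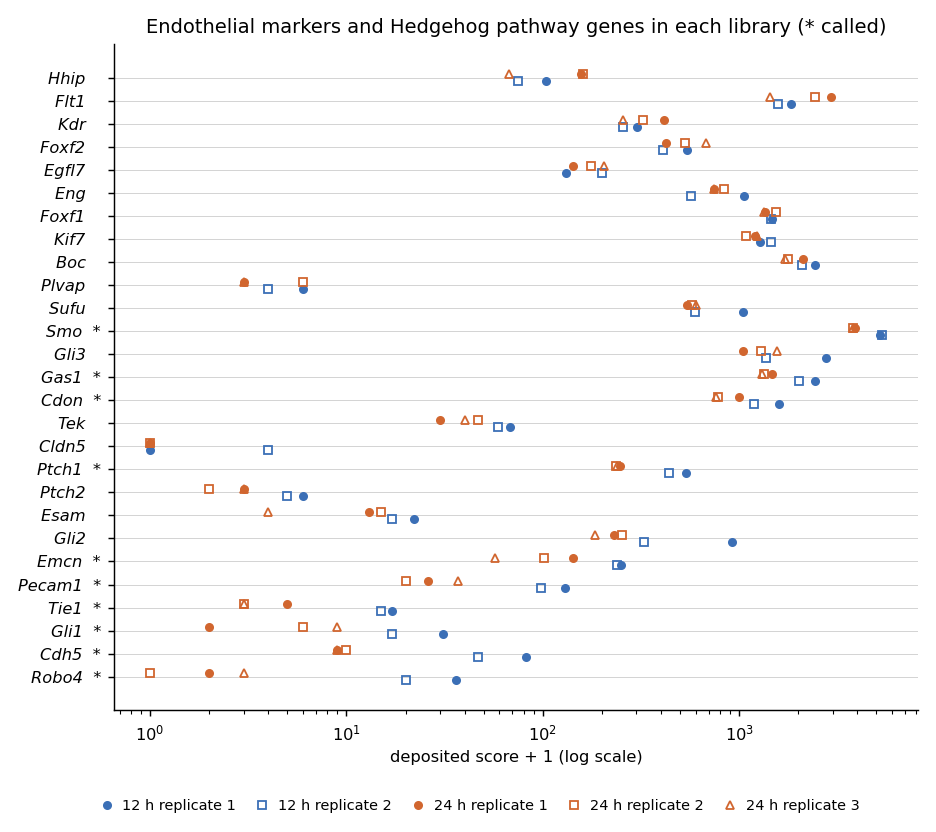
Deposited score + 1 on a log axis for the 13 endothelial markers and 14 Hedgehog genes in each library at 12 h (blue) and 24 h (orange), sorted by change, with asterisks for called genes. Robo4, Cdh5, Gli1, Tie1 and Pecam1 form the bottom of the plot with all 24 h libraries left of both 12 h libraries, and Flt1 and Kdr lie near the top with mixed libraries.

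Genes of bone, dentin and cartilage formation also held falls. Of 39 tested from a list of 50, 5 were called lower, beside 3.67% of all transcripts, and none higher, and the median change was -0.42. Dlx3, a homeobox factor of odontoblasts and osteoblasts, went from 74 and 38 to 2, 7 and 14, a change of -2.93 ± 0.69 (adjusted p = 0.0215). Dmp1, a phosphoprotein of the dentin and bone matrix, went from 249 and 222 to 44, 32 and 98, a change of -2.16. Dmp1 had scored only 21, 24 and 17 at 0 h, so that 12 h was its highest time among 0, 12 and 24 h. Smpd3, a sphingomyelinase needed for mineral, fell by 1.39, Fgfr3, an FGF receptor, by 1.08 and Pth1r, the receptor of parathyroid hormone, by 1.01. Fgfr3 and Pth1r were the 2 members called without 12 h replicate 1. Sp7 (osterix), Alpl (alkaline phosphatase) and Ibsp (bone sialoprotein) had changes of -1.04, -1.01 and -1.08, and adjusted p-values of 0.0837, 0.0904 and 0.268. All their late libraries lay below both early ones, as in 18.6% of all transcripts. Sox9, the cartilage factor, scored 359 and 137 and then 85, 56 and 116 (change -1.42) and was not called either.

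Wnt ligands gave some of the largest rises of the whole comparison. Wnt10a, which activates beta-catenin in the tooth and whose loss impairs teeth (chr1:74791516-74804179, plus strand, 4 exons), scored 15 and 21 at 12 h and 227, 249 and 296 at 24 h. Every late library was more than 10 times either early one, and the change was 3.77 ± 0.82 (adjusted p = 0.0157, and 0.144 without 12 h replicate 1). Wnt7a, a ligand best known from limb ectoderm and neurons, scored 27 and 20 and then 253, 198 and 221, a change of 3.21 ± 0.33 (adjusted p = 0.000121), and was called in every fit that left out a library. It was listed at 0 in all libraries at 0 h and in the tissue. Wnt5b, a ligand of the beta-catenin-independent branch, fell by 0.68. Of the receptors, Fzd3 fell by 0.54.

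The secreted inhibitors of Wnt signalling split. Sfrp4, Wif1 and Sfrp2, which bind Wnt ligands, fell by 1.32, 1.06 and 0.94, and Nkd1, an intracellular inhibitor and target, by 0.99. Dkk2, which binds the Lrp co-receptors, rose from 933 and 1114 to 1543, 2334 and 2450, a change of 1.02, and its relative Dkk1 had a change of -1.33 without a call. In the list of 36 pathway genes, which held Wnt10a and not Wnt7a, 2 were called higher and 6 lower, the median change was -0.26, and none was called without 12 h replicate 1. In the BMP pathway 2 of 30 genes were called higher and 1 lower, shares near the 4.59% and 3.67% of all transcripts. Both that rose bind BMPs outside the cell, Grem1 (gremlin), from 4739 and 5066 to 13634, 13266 and 12464, a change of 1.42 ± 0.23 (adjusted p = 0.00329), and Bmper by 0.74. The receptor Bmpr1a fell by 0.34. Grem1 was called without each library in turn. Bmper was not called without 12 h replicate 1 or 2 or 24 h replicate 2, and Bmpr1a was called in only 5 of 13 alternative settings.

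Other signalling lists had 1 or few calls. Igfbp4, a binding protein of insulin-like growth factors, fell from 6928 and 6796 to 3470, 3116 and 3731, a change of -1.0 ± 0.11 (adjusted p = 0.000303) that was called in each fit without a library, and it was the only one of 16 genes of that family. Hey1, a Notch target, fell by 0.94 and was the only one of 11 Notch genes. Ereg (epiregulin), a ligand of the EGF receptor, rose by 1.54 and Lif, a cytokine of the gp130 family, by 2.02, from 116 and 91 to 516, 373 and 384. Lif was at or near 0 at 0 h, with scores of 1, 0 and 4. Of 34 axon guidance genes, Sema7a and Efnb1 rose by 1.91 and 0.52, and Plxna4, Ntn1 and Ephb2 fell by 1.63, 1.09 and 0.60, counts not far from the shares of 4.59% and 3.67% among all transcripts. None of 22 TGF-beta and activin genes was called, and none of 24 immediate early and AP-1 genes, whose best known members Fos and Egr1 had changes of -0.64 and -0.65. Of these genes only Igfbp4 was called without 12 h replicate 1.

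Among 47 collagens and other matrix genes, 7 (14.9%) were called lower and 1 (2.13%) higher, with a median change of -0.17. Of the basement membrane genes 5.88% were called lower and 17.6% higher. The shares of all transcripts were 3.67% lower and 4.59% higher. The beaded-filament collagen genes Col6a1 and Col6a2 fell by 0.61 and 0.98, Col6a2 from 7242 and 6101 to 3869, 3324 and 2979. Mfap4 and Fbln1, of elastic fibres, fell by 1.82 and 0.61, Thbs2 (thrombospondin) by 1.33 and Col14a1, which coats collagen fibrils, had a called change of -1.69. Col3a1, a main fibrillar collagen, held the largest value of the scale, 127101, in both 12 h libraries and scored 70714, 40684 and 36428 at 24 h. Its change of -1.43 is thus a fall in rank from the ceiling, and how far it was above the next transcripts at 12 h cannot be seen. Col5a2, which regulates fibril width, went the other way, from 70714 in both libraries to the ceiling in all 3. Col3a1 and Col6a2 were the 2 called lower without 12 h replicate 1. Of 17 basement membrane genes, Lamb1, Col4a5 and Col4a6 rose by 0.52, 0.59 and 0.83 and Col18a1 fell by 0.77, none of which was called without 12 h replicate 1.

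Stress and metabolic genes gave calls in several lists. In the amino acid stress response driven by Atf4, 6 of 27 genes (22.2%) were called higher, beside 4.59% of all transcripts, with a median of 0.27. Trib3, a pseudokinase that damps the response, rose from 11 and 15 to 114, 54 and 49 (change 2.30), Ddit4 (Redd1, an inhibitor of mTORC1) from 161 and 257 to 1033, 600 and 551 (change 1.78), and the amino acid transporters Slc7a5 and Slc3a2 by 0.68 and 0.53. Atf5 rose by 0.56, and the sixth was Sesn2. At 0 h Ddit4 had scored 931, 595 and 650, and Trib3 3, 3 and 4. In 23 of the 27 genes the top late score was in 24 h replicate 1, compared with 34% of all transcripts, and 5 were called without that library. Slc7a5 was the only one called without 12 h replicate 1.

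Of 33 glycolysis and hypoxia genes 3 were called higher, Ankrd37 (2.37), Ddit4 and Eno1 (0.44), none of them without 12 h replicate 1, and Eno1 lost its call without any one of the 5 libraries. The 3 calls are 9.09% of the list, beside 4.59% of all transcripts called higher. In this list 24 h replicate 1 stood apart, with the top late score in 30 of the 33. Bnip3, a hypoxia target that marks mitochondria for removal, scored 367 and 361 at 12 h and 2027, 515 and 465 at 24 h, and Slc16a3, the lactate exporter, 241 and 278 and then 1743, 346 and 272. Neither was called, and without 24 h replicate 1 a single gene of the list was. Mt2 and Mt1, metal-binding metallothioneins counted with the oxidative stress genes, rose from 28 and 31 to 128, 115 and 151 (change 2.11) and from 11 and 6 to 26, 19 and 31 (change 1.5). Hmox1, heme oxygenase, had a change of 1.10 without a call. Neither metallothionein was called without 12 h replicate 1.

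In cholesterol synthesis Hmgcs1, the enzyme that makes HMG-CoA, fell from 17385 and 20902 to 10718, 8295 and 9415, a change of -1.02, and it was the only one of 25 genes called, although 22 of them had a negative sign and the median was -0.34. The lipid genes Scd2 (a desaturase), Acsl3 and Acly fell by 0.64, 0.54 and 0.34, of 14 tested. Among 31 lysosomal genes tested, Asah1 rose by 0.55 and Grn by 0.37. Of 57 oxidative phosphorylation subunits 54 had a positive sign with a median of 0.15, and none was called. None of these genes was called without 12 h replicate 1.

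**Figure D5:**
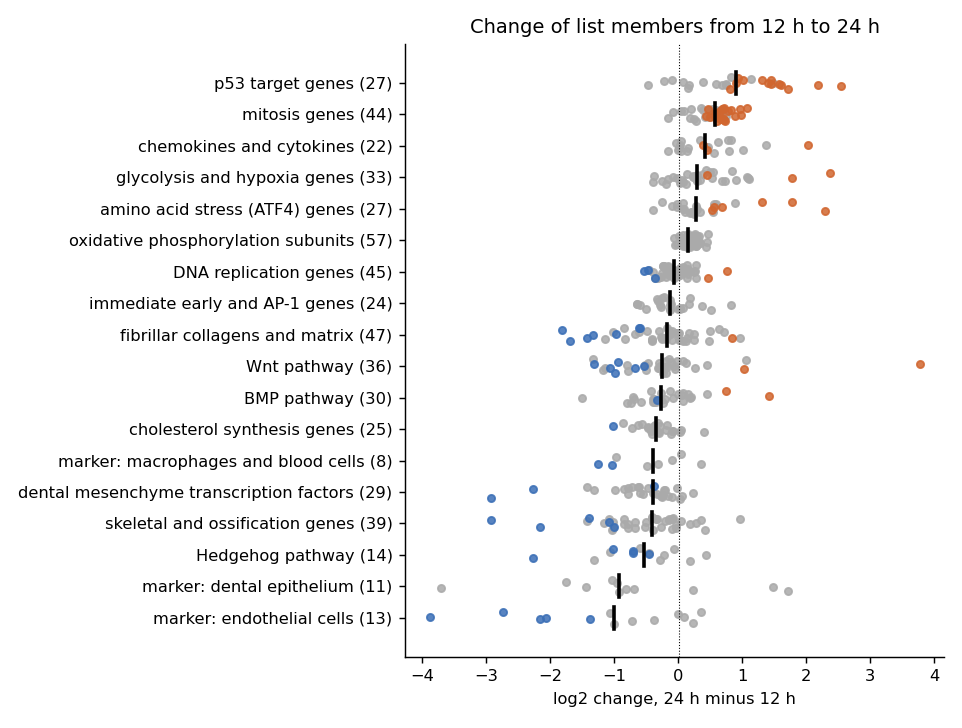
Log2 change from 12 h to 24 h of the members of 18 lists, 1 point per transcript, orange where called higher and blue where called lower, with a bar at each list's median and a dotted line at the median of all transcripts. The p53 targets have the highest median, 0.90, and the endothelial markers the lowest, -1.0.

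Interferon response genes were not a common group, but a pair of them was among the firmest calls. Tap1, the peptide transporter of antigen presentation, scored 35 and 48 at 12 h and 278, 327 and 352 at 24 h, a change of 2.92 ± 0.28 (adjusted p = 7.13e-05). It had scored 171, 352 and 320 at 0 h. Ifitm3, a membrane protein that restricts virus entry, went from 147 and 125 to 437, 549 and 482, a change of 1.84 ± 0.24 (adjusted p = 0.000873). For both, each late library was more than 2-fold above each early one, and both were called in every fit that left out a library. The other 14 genes tested, Irf9 and Ifit2 among them, were not called, and the median was 0.08. The Ifitm3 promoter is printed because it holds the interferon response motif, a pair of GAAA with any 2 bases between them, 2 times (capitals) after the start, at bases 3 to 12 and 20 to 29 (RefSeq, GRCm38.p6, chr7:141010695-141010994, minus strand).
Ifitm3: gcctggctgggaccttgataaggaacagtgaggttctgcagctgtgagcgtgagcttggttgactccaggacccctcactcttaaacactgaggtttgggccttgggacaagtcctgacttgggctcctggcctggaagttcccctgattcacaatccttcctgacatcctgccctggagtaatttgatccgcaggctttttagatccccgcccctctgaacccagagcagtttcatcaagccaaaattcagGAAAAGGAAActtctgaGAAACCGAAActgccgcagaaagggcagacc
Of all promoters 2.75% held this motif on either strand at least once.

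The largest rises and falls outside these lists were mostly of transcripts with low scores at 12 h. Syt13, a synaptotagmin of vesicle transport, went from 2 in both libraries to 61, 50 and 29, a change of 3.93 ± 0.31 (adjusted p = 1.31e-05). Dcxr, a carbonyl reductase, went from 47 and 54 to 356, 420 and 507 (change 3.05), Tbc1d2, a Rab GTPase-activating protein, from 44 and 30 to 270, 427 and 477 (change 3.35) and Ptprv, a phosphatase known as a p53 target, from 132 and 88 to 702, 754 and 1018 (change 2.90). These 4 were called in every fit without a library. Scx (scleraxis), the transcription factor of tendon, rose from 13 and 20 to 424, 296 and 59, with a wide spread among the late libraries, a change of 3.52 ± 0.63 (adjusted p = 0.00606). Anxa8, Cd80, Klhdc7a, Msln, Epha6 and 2200002D01Rik completed the list with changes from 2.87 to 3.73. Gm20425 was listed at 0 in both 12 h libraries and at 37, 21 and 12 in the later ones. Some of these rises followed higher scores at 0 h than at 12 h. Ptprv had scored 734, 1083 and 799 at 0 h, Scx 195, 163 and 120, Epha6 97, 90 and 100 and Gm20425 93, 66 and 92. In the other rises named in this paragraph every 0 h score was below every 24 h score. Epha6 lost its call without any one of the 5 libraries (adjusted p up to 0.237), and Msln and Gm20425 lost theirs without any one except 24 h replicate 3 (up to 0.272 and 0.157). Scx and Anxa8 were not called without 12 h replicate 1.

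Of the falls, Emilin3, a matrix glycoprotein, went from 141 and 118 to 14, 13 and 34 (change -2.74) and Tmem132b, a membrane protein of the nervous system, from 165 and 164 to 20, 19 and 40 (change -2.68). Msi1, an RNA-binding protein of progenitors, scored 210 and 57 at 12 h and fell by 2.38, and without 12 h replicate 1 its change was -1.45 and was not called (adjusted p = 0.318). Begain, C130074G19Rik and 6330403K07Rik fell by 2.01, 2.33 and 2.04. Begain, Tmem132b and 6330403K07Rik were called in every fit that left out a library. Emilin3 was not called without 12 h replicate 1, and C130074G19Rik was called only without 24 h replicate 1 among these fits (adjusted p up to 0.151). The transcripts called lower were longer than those called higher, with a median length of 3899.5 bases beside 2520, and 2886 for all tested, while the median GC content was 51.6%, 51.1% and 50.1%. The part of transcript length in the calls was not tested.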

How the data were processed

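RNA-seq libraries of ICR mouse mDMCs were compared between 24 h (3 libraries) and 12 h (2 libraries). The authors trimmed adaptors, aligned reads to the mouse transcriptome (mm10, Ensembl) with bowtie and estimated expression with RSEM, for which the submitters' processing notes (version 1.1.21) and the methods of the study name different versions. The step that equalised the libraries is not given in the sources used here. The deposited values are scores, whole numbers named cpm, whose library totals of 21357605 to 21365980 exceed that unit; they are not counts, and depth is unknown.

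Transcripts were matched to genes with GENCODE annotation of GRCm38 (11973 of 12089 matched). On log2(score + 1), limma 3.58.1 under R 4.3.3 was fitted to the 14 libraries of isolated and cultured cells, with 1 mean per time, an eBayes intensity trend and 9 residual degrees of freedom. The tissue, with 1 library, was left out. Among the fitted libraries, replicates 1 and 2 at 36 h often had equal or nearly equal scores. Mdm2 scored 10404 in both and 9163 in replicate 3. Gtse1 scored 2688, 2688 and 2521, and Btg2 5082, 5082 and 4193. The part of this closeness in the estimate of the spread was not tested. A transcript was tested, two-sided, where 2 or more libraries gave it 1 ppm or more of their total. The design had foreseen values in cpm, and the scale was kept as deposited. The fit was first checked on simulated scores.

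Members of the comparison and all gene lists were chosen with earlier results of these data known. Genes were named by rule: the 15 largest rises and falls that were called, over 2-fold and without overlap of libraries, up to 6 members of each list, and cell type markers. Further called list members, Mki67 and the genes whose promoters are printed were added after their values were seen. The closing part gives the alternatives.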

Additional observations from a re-analysis of the deposited data

How the results depend on the processing

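The scores carry no depth, groups of 2 and 3 libraries give wide errors, and transcripts at the ceiling or near 0 cannot be ranked. The numbers called at an adjusted p below 0.05 (554 rises and 443 falls) were 119 and 41 with only the 5 libraries of both times fitted, a fit with fewer libraries to estimate the spread, and they ranged from 135 to 571 and from 49 to 640 when each library was left out. The counts over 2-fold (217 and 228) were 82 and 74 when at least 5 ppm was required in every library, which left 10207 transcripts, and ranged from 180 to 254 and from 148 to 467 without each library. The other settings, a pseudocount of 10 or 0.1, no filter, no trend and trimmed mean scaling, kept all 4 counts within 1.5 times. Of 145 called genes of the named lists and of the largest changes, none changed sign under any setting that tested it; 111 lost their call without 12 h replicate 1, 79 without 24 h replicate 2, and 24 to 52 without another library. With 5 libraries 96 lost it, and 5 were not tested. Mki67, which was not called, ranged from -0.37 to 0.551 without each library. The cause of these losses was not tested.

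Deviations from the time means correlated at -0.024 for the libraries numbered 1 and at 0.044 for those numbered 2. With 2 libraries at 12 h, the deviations of 1 mirror those of the other. These values therefore cannot decide whether replicate numbers pair the libraries. With the replicate block, 589 rises and 466 falls were called, 244 and 243 by the threshold of the study, and 12 of the 145 genes lost their call.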

Other observations

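The 3 libraries at 24 h differed from each other by whole gene groups, which the means above do not show. The top score of a transcript fell in replicate 1 for 34%, in replicate 2 for 23.6% and in replicate 3 for 39.8% of all 12079 transcripts. Replicate 1 held the top score for 30 of 33 glycolysis and hypoxia genes, 23 of 25 cholesterol synthesis genes, 17 of 20 ER chaperones, 25 of 31 lysosome genes and 34 of 47 collagens and other matrix genes. Replicate 2 held it for 42 of 44 mitosis genes. Replicate 3 held it for 36 of 38 ribosome biogenesis genes, 32 of 45 DNA replication genes and 14 of 18 dental mesenchyme markers. For the p53 targets the counts were 10, 7 and 10. At 12 h, replicate 2 was above replicate 1 in 53 of 57 oxidative phosphorylation genes and 29 of 38 ribosome biogenesis genes, and replicate 1 was above replicate 2 in 27 of 34 axon guidance genes and 12 of 14 Hedgehog genes. Members of a list are not independent of each other, and no test was made of these counts.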
